A study of Rattus norvegicus with 8 samples.

Results

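The cluster of miR-191 and miR-425 was represented in the rat kidney by 4 of the 620 mature miRNAs counted. These were miR-191 (rno-miR-191), miR-425 (rno-miR-425), and the arms marked with an asterisk, miR-191* (rno-miR-191*) and miR-425* (rno-miR-425*), and they were taken by name, as every listed name in which miR-191 or miR-425 is not followed by a further digit. In rats treated with aristolochic acid (AA), the main strands of these neighbouring hairpins differed from the controls in opposite directions. With AA, miR-191 was 1.60-fold lower and miR-425 1.68-fold higher, and the number of miR-191 reads per miR-425 read was 37.0 ± 3.08 for the controls and 14.8 ± 5.81 after AA (SD, n = 4 each). The low-abundance arm miR-191* was 1.74-fold higher, with groups that overlapped slightly, so that the arms of the miR-191 hairpin also differed in direction. The cluster was selected on its counts in the AA-treated against the control rats, with earlier results of this comparison known, so that its differences between the groups are described here and no p-value is given for them.

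A miRNA is cut from a hairpin-shaped precursor whose paired arms can each give a mature strand. Usually one strand is loaded into the silencing complex, where bases 2 to 8, the seed, choose the target mRNAs, and the other strand, marked with an asterisk in the older naming, is mostly degraded. The miR-191 and miR-425 hairpins are neighbours, and in mammals they are transcribed together from an intron of the host gene DALRD3. miR-191 is abundant in many tissues and has often been used as a reference to normalize miRNA measurements, and both miRNAs have been studied in tumours.

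AA damages the kidney, causes cancer, and occurs in plants of the genus Aristolochia. All 8 animals were male Big Blue rats, a transgenic mutation-reporter animal on the Fisher 344 background, and were 18 weeks old per the labels. From an age of 6 weeks, the 4 AA-treated rats were gavaged on 5 days of the week with AA as sodium salt, at a dose of 10.0 mg and a volume of 4 ml per kg, and the 4 control rats got 0.9% sodium chloride equally often. The labels state 12, 13, 14 and 15 weeks of treatment for the rats numbered 1 to 4 of each group, whereas their treatment protocol and the paper give 12 weeks, which the common age also implies. Each library came from a piece of whole kidney of 1 rat, so that a change in the share of a cell type and a change in the amount of a miRNA per cell cannot be told apart. The counts on miRNAs summed to 13412373 to 15616670 per rat, the size factors by which counts were divided lay between 0.818 and 1.28, and the resulting values are called normalized counts. Over the 620 miRNAs, the median log2 fold change was 0.05 on this scale and moved to 0.31 when total counts were used instead.

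The mature strands of the 4 miRNAs are shown because the seed is what distinguishes the targets of a miRNA. They are RefSeq sequences of the GRCr8 assembly, all 4 miRNAs were matched by gene and arm, the strands without an asterisk are the 5′ arms, and the seed is in capitals.
miR-191: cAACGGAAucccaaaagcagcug
miR-191*: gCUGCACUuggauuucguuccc
miR-425: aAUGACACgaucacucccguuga
miR-425*: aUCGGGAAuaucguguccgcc
The 4 seeds differ from one another. Among the 693 mature rat miRNAs of the RefSeq table, none other carried the seed of miR-191, miR-425 or miR-425*, and that of miR-191* was shared with 1 other miRNA, miR-17-2-3p. The nearest other mature sequence was 6 edits away from miR-191 (miR-191b), 8 from miR-191* and from miR-425, and 7 from miR-425*. Differences at the ends count as edits, and the sequences are those of RefSeq, not the set used for counting. Whether the members shared reads with other miRNAs therefore cannot be told from these distances.

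The hairpins show where these strands lie in the precursor, with both mature strands in capitals.
Mir191: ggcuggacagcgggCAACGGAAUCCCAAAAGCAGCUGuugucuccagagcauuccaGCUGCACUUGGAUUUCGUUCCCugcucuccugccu
Mir425: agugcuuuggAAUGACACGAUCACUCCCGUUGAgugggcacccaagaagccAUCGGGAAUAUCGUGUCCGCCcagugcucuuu
In the RefSeq gene table of GRCr8 both hairpins lie on the plus strand inside the interval of Dalrd3, with no other gene between them. Mir3555 overlaps Mir191, and its miRNA was nearly absent, at 0 to 2 counts in the libraries of the control group and 0 to 1 in those of the AA group. The deposited counts name no genome build, and no coordinates are given.

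miR-191 was the most abundant member. Its normalized counts were 113594, 124428, 135133 and 116891 in control rats 1 to 4, and 98128, 80834, 79411 and 46974 in AA-treated rats 1 to 4. Every AA-treated rat was below every control rat, and AA-treated rat 4 was lowest by a wide margin. The group means were 122511 ± 9558 and 76337 ± 21344 normalized counts (SD, n = 4 each), and the fitted log2 fold change came to -0.68 (standard error 0.21).

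miR-425 went the other way. Its normalized counts were 3405, 3476, 3501 and 2897 in control rats 1 to 4, and 5290, 4646, 4648 and 7674 in AA-treated rats 1 to 4. All 4 AA-treated rats were above all 4 control rats, and the rat with the lowest miR-191, AA-treated rat 4, had the highest miR-425. The group means were 3320 ± 285 and 5564 ± 1439 normalized counts (SD, n = 4 each), and the log2 fold change came to 0.75 (standard error 0.21). With AA-treated rat 4 left out, miR-425 had a log2 fold change of 0.56 and miR-191 one of -0.50, with opposite signs as before.

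miR-191*, the strand opposite miR-191 in the hairpin, was rare. It had 19, 20, 25 and 29 counts in control rats 1 to 4 and 31, 46, 46 and 73 counts in AA-treated rats 1 to 4. The exact 95% Poisson interval was 11.4 to 29.7 for the lowest of these counts and 57.2 to 91.8 for the highest, and it covers counting error alone, since PCR reads without molecular identifiers are not independent molecules. After normalization the range was 19.7 to 35.4 for the controls and 34.8 to 59.4 after AA, an overlap that came from control rat 4 and AA-treated rat 1. The means were 25.2 ± 7.0 and 43.9 ± 11.4 normalized counts (SD, n = 4 each), for a log2 fold change of 0.80 and a standard error of 0.33.

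miR-425*, the strand opposite miR-425, had 16, 9, 17 and 20 counts in control rats 1 to 4 and 22, 12, 19 and 28 counts in AA-treated rats 1 to 4. Its groups overlapped over most of their range, at 9.88 to 24.4 and 9.37 to 24.7 normalized counts. Its log2 fold change of 0.17 (standard error 0.40) was smaller than its error and turned to -0.02 without control rat 2, so that no difference was detectable at this depth.

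**Figure D1:**
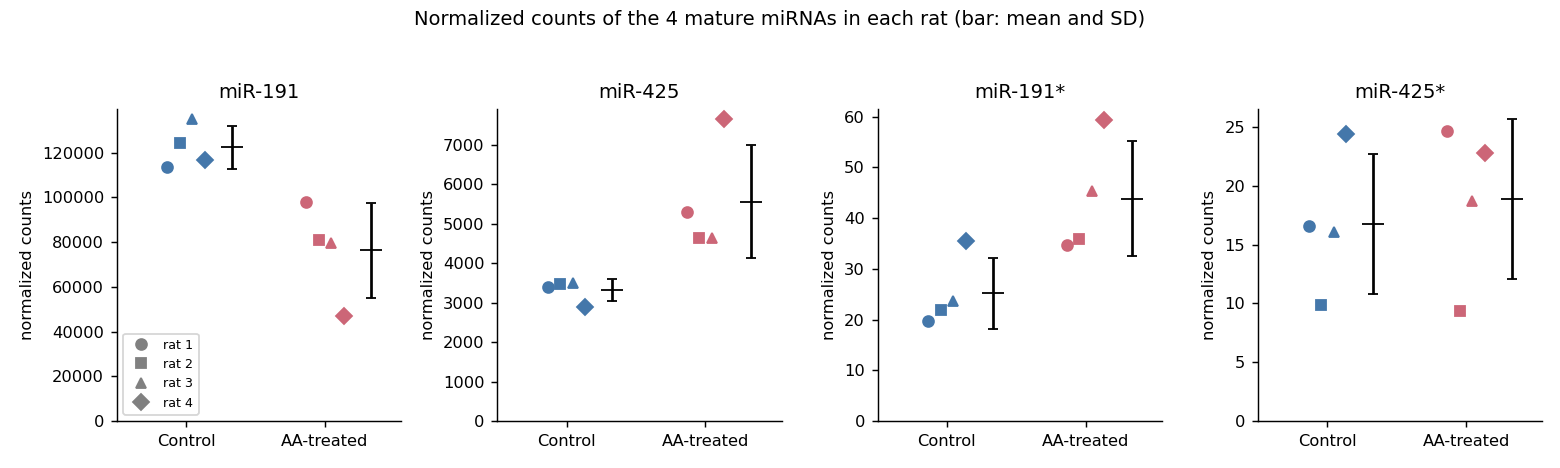
Normalized counts (y axis, from 0) of miR-191, miR-425, miR-191* and miR-425* in the 4 control and 4 AA-treated rats (x axis). Each point is 1 rat, marked by its number, and the bar is the mean with the SD. miR-191 lies at 113594 to 135133 for the controls and at 46974 to 98128 after AA, whereas miR-425 lies at 2897 to 3501 and at 4646 to 7674.

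When all 620 miRNAs were tested with edgeR's quasi-likelihood method, 1 of the 4 members, miR-425, passed an adjusted p under 0.05 together with a fold change over 1.5, beside 9.03% of all miRNAs. The same thresholds were passed upwards by 5.81% and downwards by 3.23% of all miRNAs. Groups that did not overlap were found for 2 of the 4 members, miR-191 and miR-425, beside 16.3% of all miRNAs, or 9.68% with the AA-treated rats higher, as for miR-425, and 6.61% with them lower, as for miR-191. With DESeq2, 2 members passed, miR-191 and miR-425, beside 16.6% of the miRNAs to which it gave an adjusted p. The shares of all miRNAs were 8.71% with TMM and 8.71% with robust moderation, 9.68% with limma-voom, 11.1% with total counts, 16.1% of those left by the filter on low counts, and 6.77% without both rats numbered 4. miR-425 passed under 9 of its 16 other settings and miR-191 under 3 of 16, while miR-191* and miR-425* passed under none. Leaving out any control rat, AA-treated rat 1, AA-treated rat 4 or both rats numbered 4 ended the call of miR-425. Nothing is read from these counts, for the reason given above.

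**Figure D2:**
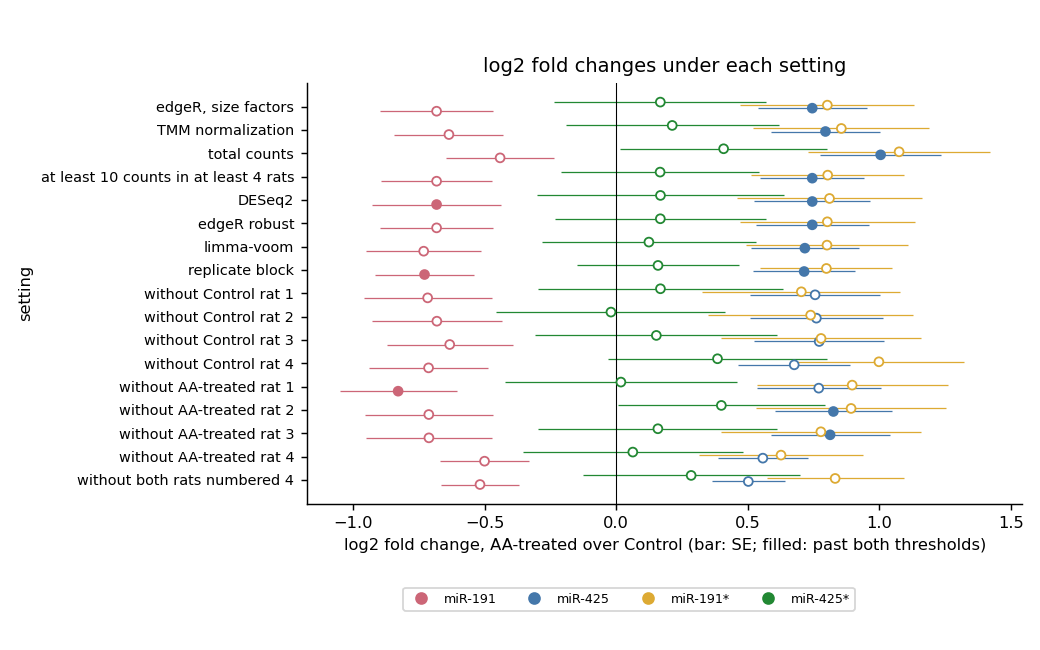
Log2 fold change (x axis, AA-treated over control, with its standard error) of each member under edgeR with size factors and 16 other settings (y axis). Filled points passed both thresholds. miR-191 stays between -0.83 and -0.44 and miR-425 between 0.50 and 1.00, while miR-425* lies on both sides of 0.

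The reads of miR-191 per read of miR-425 come from the same library and need no normalization. The ratio was 33.4, 35.8, 38.6 and 40.3 in control rats 1 to 4, and 18.6, 17.4, 17.1 and 6.12 in AA-treated rats 1 to 4. The control rats were close to each other, AA-treated rats 1 to 3 formed a second narrow range at a lower level, and AA-treated rat 4 was far below it. On the log2 scale the mean was 5.21 ± 0.12 for the controls and 3.76 ± 0.77 after AA (SD, n = 4 each), a difference of -1.45, or a 2.72-fold lower ratio. Leaving out AA-treated rat 4 gave a difference of -1.06, with an SD of 0.06 in the 3 remaining AA-treated rats.

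The arm ratio of the miR-191 hairpin, which shares the miR-191 count with the ratio above, was also lower after AA. There were 5752, 5665, 5701 and 3299 reads of miR-191 per read of miR-191* in control rats 1 to 4, and 2821, 2252, 1751 and 790 in AA-treated rats 1 to 4. Control rats 1 to 3 were nearly equal, control rat 4 lay between them and the AA-treated rats, and the groups did not overlap. The mean log2 ratio was 12.28 ± 0.40 for the controls and 10.75 ± 0.80 after AA (SD, n = 4 each), a difference of -1.53, or -1.16 without AA-treated rat 4. The counts of 19 to 73 for miR-191* limit the precision of this ratio.

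The arms of the miR-425 hairpin did not separate the groups. The reads of miR-425 per read of miR-425* ranged from 119 to 352 for the controls, with a mean of 223 ± 96.3, and from 214 to 496 after AA, with a mean of 324 ± 126 (SD, n = 4 each). The reads of miR-425 per read of miR-191*, a ratio across the hairpins, likewise overlapped, at 140 ± 40.1 for the controls and 128 ± 20.3 after AA (SD, n = 4 each). The log2 difference of this last ratio was -0.09, smaller than the SD of either group, while both ratios with miR-191 on top differed by more than 1 on this scale. All these ratios restate the differences of the members given above, so they are not separate evidence.

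**Figure D3:**
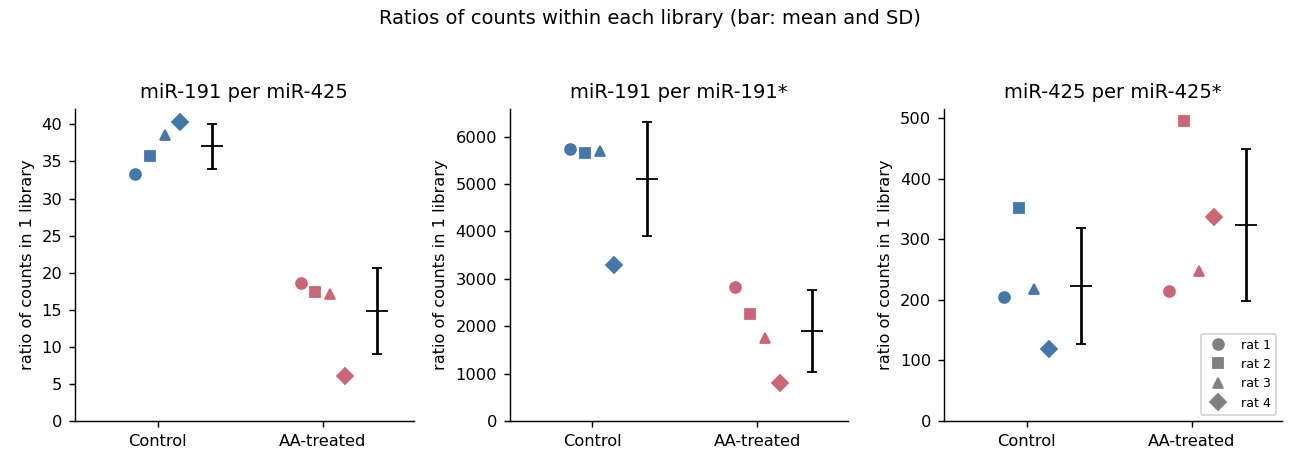
Ratio of the counts of a pair of members within each library (y axis, from 0) in the 4 control and 4 AA-treated rats (x axis), with 1 point per rat and the mean with SD as a bar. The groups are apart for miR-191 per miR-425 (33.4 to 40.3 against 6.12 to 18.6) and for miR-191 per miR-191* (3299 to 5752 against 790 to 2821), and they overlap for miR-425 per miR-425*.

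Arm ratios were compared only for hairpins listed as a name and the same name with an asterisk. Hairpins with arms listed as -5p and -3p, such as miR-142, were not included. In 92 of the hairpins with an asterisk arm, both arms had at least 10 normalized counts on average and at least 1 count in every rat. Among these 92, miR-191 had the lowest log2 difference of the arm ratio, beside a median of -0.02. As miR-191 was selected on this comparison, its place is a description only. In absolute size, 1 hairpin was further, let-7e, with a difference of 3.96 and overlapping groups. When AA-treated rat 4 was left out, 2 hairpins were lower than miR-191. The groups did not overlap for 13.0% of the 92 hairpins. miR-191 was also among the hairpins with the most unequal arms, since 1 of the 92 had a higher ratio in the control rats. miR-425, with a log2 difference of 0.56, had 24 hairpins further from 0.

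Other miRNAs that lie in clusters were set beside the pair, from a list of 27 pairs of which 25 were measured with at least 10 normalized counts on average. Some pairs share a miRNA, and some of these miRNAs are also made from other loci, so that the pairs are not independent. The absolute log2 difference of the ratio ranged from 0.005 to 0.64 in the 25 pairs, with a median of 0.22, compared with 1.45 for miR-191 and miR-425. The pair next in size was miR-143 and miR-145, which are abundant in smooth muscle, with -0.64. In the other 7 rats the value was 1.06 for miR-191 and miR-425 and at most 0.63 for the other pairs. The groups did not overlap in this ratio for 20.0% of the 25 pairs. The members of a pair had log2 fold changes of opposite sign in 6 of the 25 pairs. As miR-191 and miR-425 were selected on this comparison, the place of their ratio among the pairs is a description only.

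**Figure D4:**
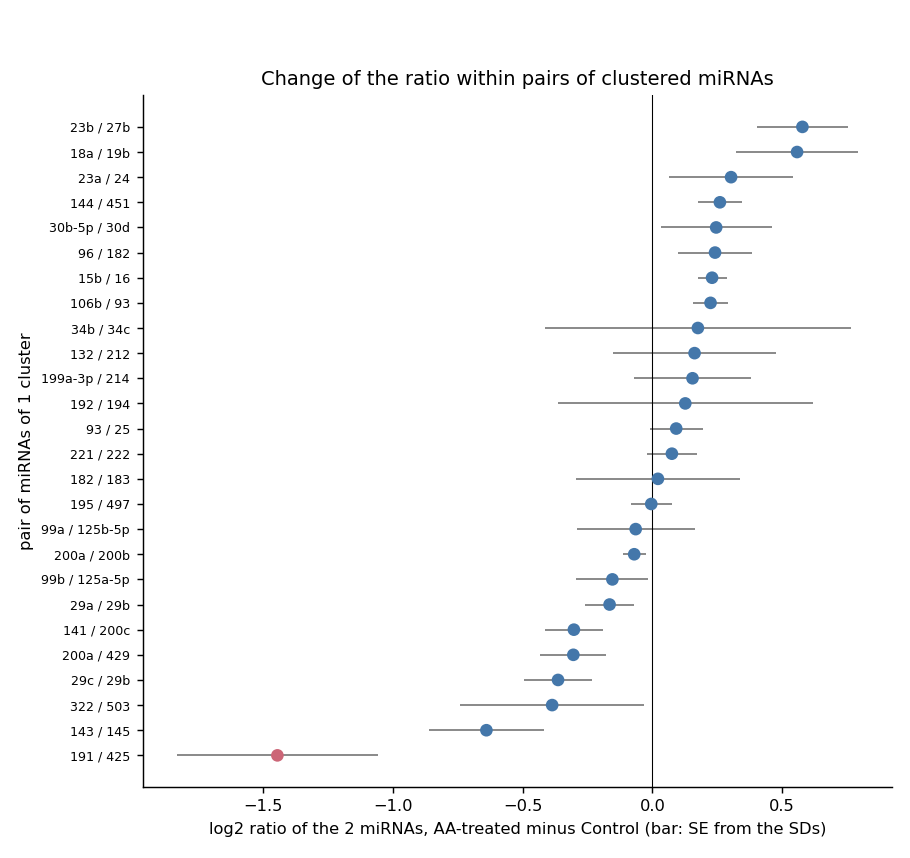
Difference of the log2 ratio of the counts of clustered miRNAs (x axis, AA-treated minus control, with the standard error from the SDs of the groups) for miR-191 and miR-425 and 25 other pairs (y axis). miR-191 and miR-425 lie at -1.45, and the other pairs between -0.64 and 0.58.

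How miR-191 and miR-425 moved together from rat to rat depended on AA-treated rat 4. Over the 8 rats, Pearson's r of the deviations of log2(normalized count + 1) from the group means was -0.72 (Spearman's rho -0.33), the lowest among the 26 pairs, where the other 25 ranged from -0.46 for miR-34b and miR-34c to 0.99 for miR-200a and miR-200b, with a median of 0.82. In the 7 rats other than this one, r was 0.70, and 9 of the 25 pairs were lower. Without both rats numbered 4, r was 0.90. These are descriptions over few rats that share size factors.

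In the control rats, the main strands were among the steadiest miRNAs. The SD of the log2 normalized count was 0.11 for miR-191 and 0.13 for miR-425, and of the 240 miRNAs with at least 100 normalized counts on average, 7.92% and 11.2% respectively had a smaller SD. In the AA-treated rats the SDs were 0.46 and 0.34, and 71.7% and 53.8% of the 240 miRNAs had a smaller one. The SDs were 0.17 and 0.11 in AA-treated rats 1 to 3, with 31.2% and 13.8% below. As coefficients of variation, miR-191 had 7.80% in the control and 28.0% in the AA-treated rats, and miR-425 8.58% and 25.9%.

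By mean normalized count over the 8 rats, miR-191 ranked 17, miR-425 ranked 86, miR-191* ranked 294 and miR-425* ranked 327 of the 620 miRNAs. From the control to the AA-treated rats, the rank of miR-191 went from 15 to 19 and that of miR-425 from 93 to 80. The strands have 21 to 23 bases and each read covers a whole strand, so that length plays little part in this order, although ligation and PCR can favour some strands. The neighbours of miR-191 were the endothelial miR-126 (103438 ± 22887) above and miR-99b (98807 ± 15168) below its own 99424 ± 29044 normalized counts (SD, n = 8 each), and these means differed by less than their spread. miR-425, with 4442 ± 1537, lay between miR-532-5p (4557 ± 548) and miR-28* (4424 ± 479), again within the spread (SD, n = 8 each). miR-191* (34.5 ± 13.3) lay between miR-217 (34.8 ± 14.1) and miR-122* (33.9 ± 81.9), and miR-425* (17.8 ± 6.04) between miR-183* (18.1 ± 2.56) and miR-881 (17.5 ± 39.6; SD, n = 8 each). The SDs of miR-122* and miR-881 exceeded their means, so that these places rest on means that a few rats carry. miR-191* and miR-425* overlapped in the control rats, while in the AA-treated rats the lowest miR-191*, 34.8, was above the highest miR-425*, 24.7.

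The miRNAs closest to miR-191 in their deviations from the group means, among the 239 other miRNAs with at least 100 normalized counts on average, were miR-381 (Pearson's r 0.97 over 8 rats), miR-144* (0.95), miR-541 (0.93), miR-126* (0.92) and miR-200b* (0.92). All 5 had negative log2 fold changes, from -0.80 to -0.50, and none of them passed both thresholds. Their likeness rested in part on AA-treated rat 4, since r without this rat lay between 0.26 and 0.75. A low value in this rat also lowers the AA mean, so the choice itself favours a negative sign.

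For miR-425, the closest were miR-511* (Pearson's r 0.97 over 8 rats), miR-503* (0.93), miR-872* (0.90), miR-652 (0.87) and miR-450a (0.86). Their log2 fold changes were all positive, from 0.38 to 4.31, and miR-511* passed both thresholds, with an adjusted p of 7.6e-04 in edgeR's quasi-likelihood test. In the 7 rats other than AA-treated rat 4, r was 0.99 for miR-503*, 0.81 for miR-511* and 0.25 to 0.58 for the other 3. A high value in AA-treated rat 4 also raises the AA mean, so the choice itself favours a positive sign.

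Since miR-191 serves as a reference in many miRNA assays, 20 other miRNAs used or proposed for that purpose were set beside it. Of these 20, 2 passed both thresholds, both downwards, compared with 9.03% of all miRNAs in either direction and 3.23% downwards. Of the 240 miRNAs with at least 100 normalized counts on average, which leave out the rare ones, 24 passed upwards and 14 downwards. miR-103, with an almost identical relative in miR-107, had 247339 ± 70301 normalized counts for the controls and 106639 ± 26023 after AA (SD, n = 4 each), 2.32-fold lower (adjusted p = 0.0036 from edgeR, log2 fold change -1.21). miR-107 was 1.71-fold lower (adjusted p = 0.039 from edgeR, log2 fold change -0.77), and the counting rule for reads that match both is not given in the sources used here. The median over the 20 miRNAs was -0.06 and that over all 620 was 0.05. miR-93 and miR-16 had log2 fold changes of 0.003 (standard error 0.19) and 0.09 (standard error 0.17). miR-191, at -0.68, and miR-425, at 0.75, lay further from 0 than 17 and 18 of the 20. The members were selected on this same comparison, which favours such places, so nothing is read from them.

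Scaling to either member moved the fold changes of the other miRNAs, in opposite directions. This follows by arithmetic from the fold changes of the members themselves, so the values describe the scaling and are not a separate result. With each library scaled to its miR-191 count, the median log2 fold change of the remaining 619 miRNAs was 0.82, and 136 miRNAs passed both thresholds upwards and 3 downwards (97.8% upwards). With each library scaled to its miR-425 count, the median was -0.66, and 20 passed upwards and 113 downwards (15.0% upwards). With the size factors the numbers were 36 and 20 (64.3% upwards), and with total counts 58 and 11 (84.1%). miR-191 had a log2 fold change of -0.68 with the size factors, -0.64 with TMM and -0.44 with total counts, and miR-425 had 0.75, 0.80 and 1.00. Relative to the median of all miRNAs with the size factors, the values were -0.73 and 0.70.

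**Figure D5:**
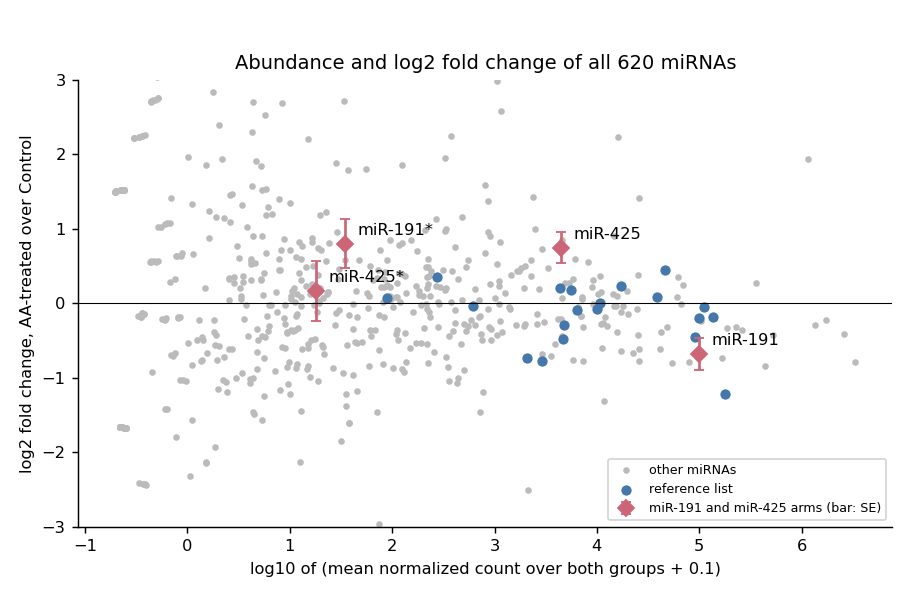
Log2 fold change (y axis, AA-treated over control) against the log10 of the mean normalized count plus 0.1 (x axis) of the 620 miRNAs, with the members (diamonds, with standard errors) and the 20 miRNAs of the reference list in colour. The axis leaves out 29 miRNAs beyond 3 in either direction. miR-191 lies at -0.68 and miR-425 at 0.75, while the reference list has a median of -0.06.

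Of the leukocyte markers, 2 of the 4 measured moved with the groups, beside 5.81% of all miRNAs upwards. Of the 240 miRNAs with at least 100 normalized counts on average, 24 passed upwards and 14 downwards. Of the 5 on the list, miR-155 was not analysed here, and none of the 4 was at 0 in any rat. miR-142-3p (2.67-fold) and miR-223 (1.94-fold) passed both thresholds upwards, with adjusted p of 7.9e-04 and 0.023 from edgeR. miR-150 (log2 fold change 0.52, adjusted p = 0.13) and miR-142-5p (0.26, adjusted p = 0.63) did not pass in edgeR, and the AA-treated rats spanned the range of the controls for miR-142-5p. The median log2 fold change of the 4 was 0.74. Their summed normalized count, most of it from miR-142-3p, was 13715 to 17802 for the controls and 29485 to 56648 after AA, highest in AA-treated rat 4, the rat with the most miR-425 and the least miR-191. Their part in the differences of miR-191 and miR-425 was not tested. Of 7 markers of the kidney tubule, 1 passed downwards, beside 3.23% of all miRNAs, miR-204 (1.81-fold, adjusted p = 0.036 from edgeR), with a median log2 fold change of -0.54 and a summed count of 2406643 to 3426705 for the controls and 1725901 to 2495170 after AA, and none of the 7 was at 0. No marker passed of the 2 measured for red cells (median log2 fold change -0.66, summed 6910 to 11910 for the controls and 2172 to 8116 after AA), of 2 for endothelium (-0.42, summed 124106 to 164003 and 88876 to 137262), of 5 for smooth muscle and fibroblasts (0.43) and of 1 for liver, miR-122, whose level was 7519 in AA-treated rat 2 and at most 735 elsewhere. The summed count of the smooth muscle and fibroblast list, nearly all of it miR-143 (log2 fold change -0.41), was 2559048 to 3549718 for the controls and 1973055 to 2676497 after AA, opposite in direction to its median. At an unadjusted p under 0.05 in edgeR's quasi-likelihood test, there were 3 of 4 leukocyte, 3 of 7 tubule and 1 of 2 red cell markers. There were also 0 of 2 endothelial, 3 of 5 smooth muscle and fibroblast and 0 of 1 liver markers. This compares with 23.9% of all miRNAs and with 83 of the 240 miRNAs with at least 100 normalized counts on average. The part of these lists was not tested either.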

How the data were processed

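Small RNA of the kidneys of 4 control and 4 AA-treated rats was sequenced, with 1 library per rat. Bases were called with CASAVA 1.7 per the labels. The values the authors deposited are read counts per mature miRNA of miRBase release 16, made with the miRanalyzer webserver at its default parameters and neither normalized nor pooled. The rule for reads matching several miRNAs is not given in the sources used here.

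The counts were divided by size factors (medians of ratios), and all 620 miRNAs were fitted in R 4.3.3 with edgeR 4.0.16 (quasi-likelihood, no covariates, Benjamini-Hochberg adjustment). The thresholds were 0.05 for the adjusted p and 1.5 for the ratio of the group means. Alternatives were TMM, total counts, DESeq2 1.42.0, limma-voom (limma 3.58.1), robust moderation, a minimum of 10 counts in 4 rats, a replicate block and leaving out rats. Correlations used a pseudocount of 1. Python 3.11.15, pandas 2.3.3, scipy 1.17.1 and matplotlib 3.10.9 served for the rest.

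The members and lists were chosen with earlier results of these data known. Named were the members, their neighbours in rank, the 5 miRNAs most like miR-191 and miR-425, called miRNAs of the reference and marker lists, and the cluster pairs with the highest and lowest correlation. let-7e, miR-93, miR-16, the pair of miR-143 and miR-145 and the liver marker were named after their values were seen. The p-values set the difference between the groups against the spread between rats.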

Additional observations from a re-analysis of the deposited data

Results flagged for a closer look

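Of 14 sets of 4 values examined for a value far from the others (4 members and 3 ratios in each group), 3 held one. Chance gives about 1 in 20 for a single set. The ratios are built from the counts of the members, so the sets are not independent and their number cannot be judged against that rate. Control rat 4 was low in miR-425, at 2897 normalized counts, with a gap to the next rat of 0.84 of the range of the control rats. The same rat was low in miR-191 per miR-191*, at 3299, with a gap of 0.96 of the range. AA-treated rat 4 was low in miR-191 per miR-425, at 6.12, with a gap of 0.88 of the range. The cause of these values was not tested.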

How the results depend on the processing

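The log2 fold changes of miR-191, miR-191* and miR-425* moved by less than the SD of the log2 values pooled over both groups (0.33, 0.35 and 0.55) under each of 16 other settings, and that of miR-425 (0.26) under 15, the exception being total counts, with 1.00. With total counts miR-191 had -0.44, a move larger than its SD of 0.11 in the control rats and than its standard error of 0.21. With each rat left out in turn they ranged from -0.83 to -0.50 for miR-191, 0.56 to 0.83 for miR-425, 0.63 to 1.00 for miR-191* and -0.02 to 0.40 for miR-425*. The 4 ratios within a library moved by less than their own pooled SD in all 11 settings. The number of members passing both thresholds was 2, miR-191 and miR-425, with DESeq2 and with the replicate block, 0 without both rats numbered 4, and 0 to 1 with each rat left out. Of the reference list, 1 miRNA passed with TMM, with total counts, with the replicate block and without both rats numbered 4, and 1 to 3 passed with each rat left out. The correlation of miR-191 and miR-425 was 0.90 without both rats numbered 4 and ranged from -0.84 to 0.70 with each rat left out. Over all miRNAs, the median log2 fold change was 0.31 with total counts, 0.82 when scaled to miR-191 and -0.66 when scaled to miR-425. Calls over all miRNAs numbered 56, 74 with the block and 40 to 62 with each rat left out. For the block, same-numbered rats are different animals. The labels give them the same weeks of treatment, 12 to 15 for numbers 1 to 4, whereas the treatment protocol gives 12 weeks. No source used here ties a number to a shared batch. Their deviations over 370 miRNAs correlated by -0.01 to 0.34 (mean 0.15), highest for the rats numbered 4. The mean of -0.05 for differently numbered rats adds little, since deviations from a group mean cancel within the group. 5 of the 8 rats correlated best with their own number, among them both rats numbered 3 and both numbered 4. Each of these pairs is 1 correlation counted from both sides. The count is a hint from the data of something shared, but with 1 pair at -0.01 the numbers were not taken as pairs. The counts of 9 to 73 for the asterisk arms limit what can be seen of them.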
